A study of Arabidopsis thaliana with 163 samples.

Results

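Indole glucosinolates are tryptophan-derived defence compounds of the cabbage family. In *Arabidopsis thaliana* their synthesis is switched on by the MYB34, MYB51 and MYB122 transcription factors. CYP79B2 and CYP79B3 turn tryptophan into an aldoxime, CYP83B1 oxidises the aldoxime, and the C-S lyase SUR1 acts on the sulfur conjugate that follows. CYP81F4 then hydroxylates the indole ring, and the methyltransferases IGMT1 and IGMT5 methylate hydroxylated indole glucosinolates. These 10 genes, taken by name out of 27444 nuclear protein-coding genes, were MYB34 (AT5G60890), MYB51 (AT1G18570), MYB122 (AT1G74080), CYP79B2 (AT4G39950), CYP79B3 (AT2G22330), CYP83B1 (AT4G31500), SUR1 (AT2G20610), CYP81F4 (AT4G37410), IGMT1 (AT1G21100) and IGMT5 (AT1G76790). Every chromatin domain and MYC2 peak that touched the gene body or the 2 kb before the start site (TAIR10, counted from 1) was collected. Jasmonate (JA) is a wound and defence hormone, and MYC2 is a bHLH factor of its pathway that binds the G-box, CACGTG.

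The series held 163 samples in 56 groups, profiled by ChIP-seq or by PHILO ChIP-seq, a plate-based protocol for many small plant samples. The lists used here came from whole 10-day-old seedlings, which mix many cell types, and the histone lists from Col-0. H3K9ac in untreated seedlings was mapped in 2 regular and 3 PHILO libraries, each with its own domain list against IgG, and H3K4me3, H3K36me3 and H3K27me3 in 3 replicates each, merged before calling. Acetylation at 2 h after gaseous methyl jasmonate was compared with control (ctrl) seedlings in a large-scale experiment and in a time course, each with 3 replicates per group that were merged before calling. These 2 experiments had their own control seedlings, and the merged lists hold no values of single replicates, so they carry no replicate error. The MYC2 list came from 2 control and 2 JA samples by title. Their other labels name the H3K9ac antibody and untreated Col-0, whereas the methods of the study name a myc2 line carrying MYC2-FLAG, and the list itself does not state which treatment was called. The methods describe JA-induced MYC2 binding, called by comparing ctrl with 2 h JA samples of that line. If the list is that comparison, a gene without a peak lacks a call of JA-induced binding, which is not an absence of MYC2.

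H3K9ac domains held between 8986137 and 13807286 counts per library in the 5 untreated lists, and the total of each library was 1.28 to 2.36 times that of the shared IgG control. That control was 1 library, taken as IgG by its title, while its other labels name an H3K9ac antibody. Its noise is shared by every fold over IgG, and an SD over libraries does not include it. The merged H3K9ac list followed the sum of the 2 regular libraries (median ratio of counts 1.02 over 2919 domains with the same ends) rather than that of the 3 PHILO libraries (0.665 over 1638 domains). The 4 leaf genes used to check the tissue (RBCS1A, LHCB1.1, PSAD1 and PSBO1) all had H3K9ac in all 5 libraries and H3K4me3, and 2 of them also had H3K27me3 in the window. The 4 embryo and flower genes (LEC1, FUS3, AG and AP3) had neither, and all 4 had H3K27me3. H3K36me3 did not separate both sets fully, since it was called at PSAD1, PSBO1 and AP3 but not at RBCS1A and LHCB1.1. Since tissue was taken whole, a change in every cell and a change in a few cells cannot be told apart.

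MYC2 peaks lay at 8 of the 10 genes, against 12.5% of all genes. MYB51 and MYB122 had none. A choice of summit sequences is shown, for each gene with a peak except IGMT1, to compare summits with CACGTG, with another motif and with none. They are given 5′ to 3′ on the strand of the gene, from the RefSeq copy of the genome (TAIR10.1). Capitals mark CACGTG, its variant CACGTT or CATGTG on either strand, and each run covers up to 50 bases on either side of the summit, shortened where more than 30 bases were untranslated, so that the MYB34 run ends before its summit.
CYP79B2 summit 1784 bp before the start site, chr4:18523208-18523308, plus strand: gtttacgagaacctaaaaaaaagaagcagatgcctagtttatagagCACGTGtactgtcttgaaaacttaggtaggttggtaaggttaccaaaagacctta
CYP79B2 summit 59 bp before the start site, chr4:18524933-18525033, plus strand: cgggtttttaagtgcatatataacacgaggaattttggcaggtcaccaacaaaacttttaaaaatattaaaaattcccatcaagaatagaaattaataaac
CYP79B3 summit 1006 bp before the start site, chr2:9487357-9487457, plus strand: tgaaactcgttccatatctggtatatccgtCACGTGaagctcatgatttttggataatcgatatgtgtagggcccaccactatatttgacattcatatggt
CYP83B1 summit 12 bp before the start site, chr4:15275375-15275466, minus strand: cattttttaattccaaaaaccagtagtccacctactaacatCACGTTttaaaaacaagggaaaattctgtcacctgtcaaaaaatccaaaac
SUR1 summit 38 bp before the start site, chr2:8880428-8880528, minus strand: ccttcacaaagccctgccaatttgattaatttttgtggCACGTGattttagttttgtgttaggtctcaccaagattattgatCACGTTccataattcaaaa
CYP81F4 summit 1214 bp before the start site, chr4:17589508-17589608, plus strand: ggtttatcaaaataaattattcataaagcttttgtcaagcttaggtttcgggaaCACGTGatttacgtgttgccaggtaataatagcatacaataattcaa
IGMT5 summit 136 bp before the start site, chr1:28823813-28823913, minus strand: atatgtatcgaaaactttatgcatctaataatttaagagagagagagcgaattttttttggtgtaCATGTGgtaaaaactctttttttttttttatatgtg
IGMT5 summit 895 bp before the start site, chr1:28824572-28824672, minus strand: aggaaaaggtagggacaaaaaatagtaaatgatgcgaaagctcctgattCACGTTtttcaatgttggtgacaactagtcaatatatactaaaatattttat
MYB34 summit 232 bp after the start site, chr5:24494473-24494502, plus strand: ctgCACGTGgcatttccccacagtgactta
CYP79B2, CYP79B3, SUR1, CYP81F4 and MYB34 had CACGTG within 50 bp of a summit, at 6 of the 20 summits in all. CACGTT stood at 4 of the 20 summits, at MYB34, CYP83B1, SUR1 and IGMT5. Of all 3464 MYC2 summits, 27.3% held CACGTG, 20.2% CACGTT and 24.2% CATGTG in the same window. The summit of SUR1 next to its start site and that of MYB34 232 bp after the start site held both CACGTG and CACGTT.

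The 20 peaks were spread unevenly over the 8 genes. CYP79B2 and CYP79B3 had 4 peaks each, and 4 or more were found at 17 of all genes, or 0.0619%. CYP81F4 and IGMT5 had 3 each, MYB34 and SUR1 had 2 each, and CYP83B1 and IGMT1 had 1 each. Of the summits 9 lay upstream of the start site, 6 in coding exons, 3 in untranslated exons and 2 in introns. The median fold enrichment given by the peak caller was 2.86 at the 20 peaks and 2.59 over all peaks.

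CYP83B1 had the highest fold of the 20, 5.18, at a summit 12 bp before its start site (−log10 q = 55.0), and it ranked 52 of the 3464 peaks by fold. The 3 IGMT5 summits, at 895 bp and 136 bp before and 566 bp after the start site, had folds of 3.74, 4.10 and 4.16, and the first had the highest −log10 q of the 20, 61.5. The IGMT1 peak, 356 bp before the start site, was weak, with a fold of 2.34 and a −log10 q of 2.97. The summits of CYP79B2 at 1784 bp and 59 bp before the start site had folds of 2.44 and 3.34, and the upstream summits of CYP79B3 and CYP81F4 had folds of 2.63 and 3.57.

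CYP79B2 and CYP79B3, which carry out the same step, both had a strong summit in the last exon, with folds of 3.67 and 3.83. A stretch of 638 bp in this exon aligned between both genes with 83.7% identical bases, and in this alignment the CYP79B3 summit was 5 bp from that of CYP79B2. The windows at these paired summits are shown because neither contains the G-box or any of the other motifs searched, and because their letters show how alike both genes are at the summit.
CYP79B2 summit 1992 bp after the start site, chr4:18526984-18527084, plus strand: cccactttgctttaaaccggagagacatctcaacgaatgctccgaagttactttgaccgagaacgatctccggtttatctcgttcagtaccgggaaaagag
CYP79B3 summit 2315 bp after the start site, chr2:9490678-9490778, plus strand: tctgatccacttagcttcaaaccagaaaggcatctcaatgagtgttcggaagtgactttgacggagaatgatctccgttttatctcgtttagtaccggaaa
Over the window of the CYP79B2 summit 84 of 101 aligned bases were identical. Reads of fragments shared by both genes were not examined, so the part of each gene in the signal of the other was not tested.

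**Figure D1:**
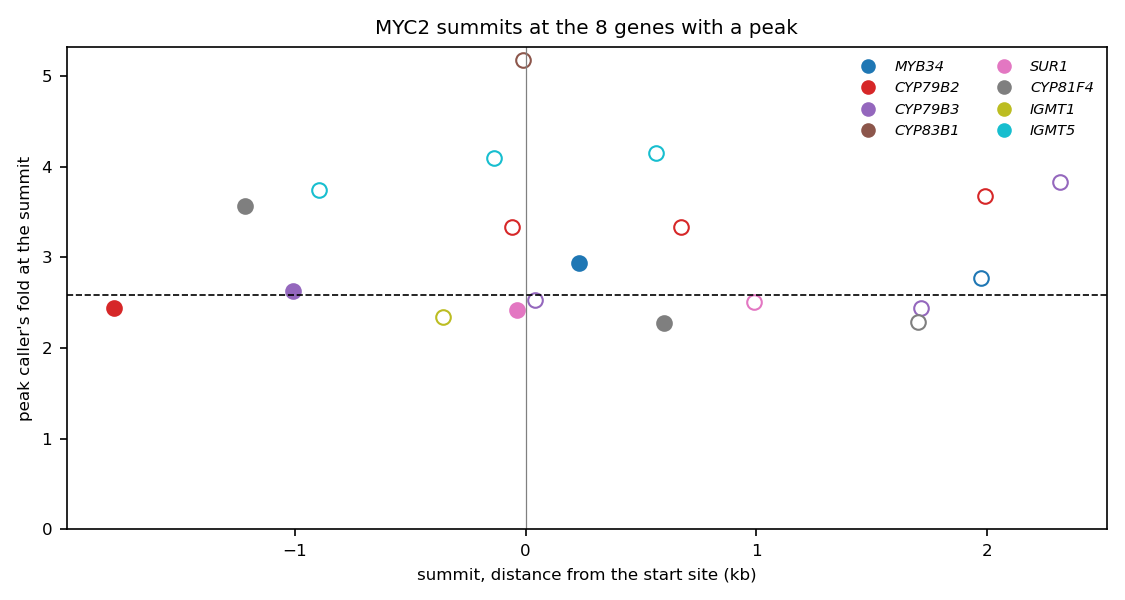
MYC2 summits at the 8 genes with a peak. The x axis gives the distance of the summit from the start site in kb and the y axis the fold enrichment of the peak caller, filled circles have CACGTG within 50 bp of the summit and the dashed line is the median of all peaks (2.59). CYP83B1, with 5.18, is the highest and has no CACGTG.

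Upstream regions alone gave another picture of the G-box. CACGTG occurred in the 2 kb upstream of 4 of the 10 genes (CYP79B2, CYP79B3, SUR1 and CYP81F4) and of 23.8% of all genes. CYP79B3 had 2 copies. MYB51 and MYB122, the genes without a MYC2 peak, had no copy in this window, and neither did MYB34, CYP83B1, IGMT1 and IGMT5, which had peaks.

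H3K9ac rose at 2 h JA in called domains at 6 of the 10 genes in the large-scale experiment, against 13.1% of all genes, and at 7 in the time course, against 21.1%. MYB34, CYP79B2, CYP79B3, CYP83B1, CYP81F4 and IGMT5 had a gain in both, against 7.23% of all genes, and SUR1 had one in the time course list alone. A gain in either list was found at 26.9% of all genes. All 6 genes with both gains also had a MYC2 peak, a combination found at 3.08% of all genes. Losses in the time course lay at MYB51 and CYP83B1, against 16.3% of all genes. MYB122 and IGMT1 had neither a gain in either experiment nor a loss in the time course. Losses in the large-scale experiment were not analysed here. In the values that follow, the log2 ratio is that of JA over ctrl counts in the domain, scaled by the ratio of library totals, with an exact 95% binomial interval that covers counting error alone.

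Among the regulators, MYB34 gained and MYB51 lost acetylation. The large-scale gain at MYB34 (chr5:24492401-24501800) held 1971 JA and 1199 ctrl counts, a log2 ratio of 0.79 (0.69 to 0.90). The time course gain (chr5:24490201-24496400) held 1496 JA and 987 ctrl counts, a log2 ratio of 0.62 (0.50 to 0.73). Both domains covered the whole of MYB34, and the large-scale one ran on through the neighbouring RLK1 (AT5G60900). At MYB51 the time course loss covered the first 1600 bp of the gene (chr1:6389401-6391000), with 428 ctrl and 222 JA counts. The ctrl level there was 1.91 times the JA level, a log2 ratio of ctrl over JA of 0.93 (0.69 to 1.17), and 1.32% of all genes with a loss had as large a ratio. The nearest gain to MYB51 lay 4415 bp beyond its end in both experiments. The nearest gain to MYB122 lay 2578 bp before its start site, outside the window. Of the 3 regulators, MYB34 was the one with MYC2 peaks in its window.

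The genes of the core pathway had moderate gains. CYP79B2 had a log2 ratio of 0.69 (0.59 to 0.78) in the large-scale experiment, from 2218 JA and 1455 ctrl counts over 10600 bp (chr4:18517801-18528400). That domain started 7241 bp before the CYP79B2 start site and also overlapped AKN2 (AT4G39940), AT4G39925, AT4G39930 and AT4G39952. In the time course the CYP79B2 gain spanned 4600 bp (chr4:18524001-18528600), with 787 JA and 613 ctrl counts and a log2 ratio of 0.38 (0.22 to 0.53). This gain also overlapped 964 bp of AT4G39952. CYP79B3 had 725 JA and 453 ctrl counts in the large-scale experiment (chr2:9487801-9491200), a log2 ratio of 0.76 (0.58 to 0.93). In the time course its gain was limited to the first part of the gene (chr2:9487801-9489600), with 330 JA and 217 ctrl counts and a log2 ratio of 0.62 (0.37 to 0.87). The intervals of CYP79B2 and CYP79B3 overlapped in both experiments. SUR1 had 750 JA and 556 ctrl counts in its time course gain (chr2:8878201-8880400), a log2 ratio of 0.45 (0.29 to 0.61). The nearest large-scale gain to SUR1 lay 12087 bp away.

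CYP83B1 stood apart, with a gain and a loss in the same time course. Its large-scale gain (chr4:15272801-15279400) had 2013 JA and 1782 ctrl counts and a log2 ratio of 0.25 (0.16 to 0.35), near the median of 0.27 for all genes with a gain. That domain also overlapped AT4G31490, AT4G31510 and AT4G31520 and included the stretch of the time course loss, so its ratio is not that of CYP83B1 alone. The time course gain of CYP83B1 (chr4:15273801-15279400) had 2031 JA and 1936 ctrl counts, a log2 ratio of 0.08 whose interval (−0.006 to 0.17) included 0. The loss (chr4:15276201-15279400) lay inside that gain, upstream of CYP83B1 and over AT4G31510 and AT4G31520, with 1319 JA and 1497 ctrl counts, a log2 ratio of JA over ctrl of −0.17 (−0.28 to −0.06). Since counts add over the 200 bp bins of the caller, the loss could be subtracted. The rest of the gain (chr4:15273801-15276200), which covers the start site and most of the CYP83B1 body, held 712 JA and 439 ctrl counts, a log2 ratio of 0.71 (0.54 to 0.89). This subtraction was chosen after seeing the values, and leaving out a stretch called as a loss can only raise the ratio of the rest. Of 3504 time course gains, 26 (0.742%) overlapped a loss.

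Among the genes of ring modification, IGMT5 had the largest ratio of the 10 genes in both experiments. In the large-scale gain (chr1:28821801-28825200) it had 791 JA and 212 ctrl counts, 3.94 times the ctrl level and a log2 ratio of 1.98 (1.76 to 2.202). This ranked 8 of 3586 genes with a gain. In the time course gain (chr1:28821601-28825000) IGMT5 had 718 JA and 370 ctrl counts, a log2 ratio of 0.97 (0.79 to 1.16), which ranked 105 of 5781 genes. The end of AT1G76780, the gene that follows IGMT5, lay in both domains. CYP81F4 had gains with the same ends in both experiments (chr4:17590801-17592600). Its counts were 242 JA and 201 ctrl in the large-scale experiment, a log2 ratio of 0.34 (0.07 to 0.62), and 400 JA and 347 ctrl in the time course, a log2 ratio of 0.22 (0.009 to 0.43). Both intervals of CYP81F4 came near 0. AT4G37409 is annotated on the other strand of the same DNA, so the signal of CYP81F4 and that of AT4G37409 cannot be told apart. The nearest gain to IGMT1 lay 65089 bp away in both experiments.

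Across the genes with a gain, the median log2 ratio was 0.72 (6 genes, range 0.25 to 1.98) in the large-scale experiment, beside 0.27 over all 3586 genes with a gain. In the time course it was 0.45 (7 genes, range 0.08 to 0.97), beside 0.23 over 5781 genes. The ratio was higher in the large-scale experiment at 6 of the 6 genes with both gains, and at 54.4% of 1984 genes. Of the 20 MYC2 summits, 15 lay inside a large-scale gain and 13 inside a time course gain, against 17.3% and 19.5% of all summits. Time course losses held 0 of the 20, against 6.50% of all summits.

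**Figure D2:**
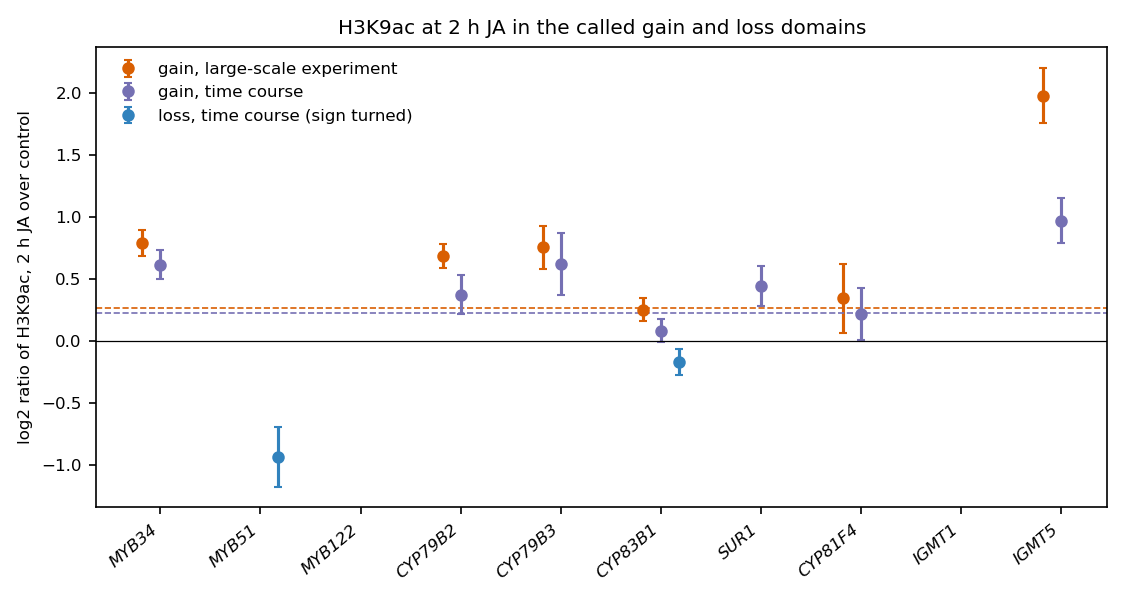
H3K9ac at 2 h JA in the called domains of each gene. The y axis gives the log2 ratio of JA over control counts, points are merged replicates, bars are exact 95% binomial intervals for counting error, and dashed lines are the medians of all genes with a gain (0.27 large-scale, 0.23 time course). IGMT5 is highest in both experiments, at 1.98 and 0.97, MYB51 is the gene with the large loss, and MYB122 and IGMT1 have no point.

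Before treatment, domains of active marks and of the repressive H3K27me3 were both called at most of these genes. H3K27me3, the mark of Polycomb, was called at 8 of the 10 genes, against 42.3% of all genes, and H3K4me3, a mark of active start sites, at 9, against 72.7%. Both occurred at 7 genes, against 23.5% of all genes. H3K4me3 was weak at these 7, with log2 folds over IgG from 0.81 at CYP79B2 to 2.18 at IGMT5. The median over 17429 genes with H3K4me3 on the body was 2.65. At CYP79B3 the H3K4me3 domain began 1988 bp after the start site. A gain in both experiments together with H3K27me3 was found at MYB34, CYP79B2, CYP79B3, CYP81F4 and IGMT5, against 2.5% of all genes. H3K36me3, a mark of transcribed gene bodies, was called at 4 genes, against 66.8%, and within the gene body at SUR1 and IGMT5 alone. At MYB51 and CYP83B1 the H3K36me3 domain lay upstream, and at MYB51 it met the window by 2 bp, so that 3 genes remained with an overlap of at least 200 bp. H3K27me3 and acetylation are read from mixed tissue here, so marks on the same nucleosomes and marks in different cells cannot be told apart.

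The strength of H3K27me3 varied widely among the 7 genes with the mark on the body. Each fold is that of the whole domain, which spanned 6200 bp at MYB51, 7400 bp at CYP79B2 and 9200 bp at CYP79B3. The CYP79B2 domain also overlapped AKN2, and the CYP79B3 domain AT2G22335 and AT2G22340, so these folds are not those of the genes alone. MYB51 had the highest log2 fold over IgG, 2.61, followed by CYP79B2 with 2.47 and CYP79B3 with 2.404, each above the median of 2.01 over 7881 genes. MYB122, which had no other domain, had 1.75. CYP81F4 had 1.35, IGMT1 0.82 and MYB34 0.58, and 98.6% of all genes with the mark on the body had at least the MYB34 level. At IGMT5 H3K27me3 lay upstream of the gene (chr1:28825401-28830400), beginning just past the end of the large-scale gain. CYP83B1 and SUR1 had no H3K27me3 domain.

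The gain domains of several genes lay largely in H3K27me3. All of both CYP79B3 gains and of both CYP81F4 gains was covered by H3K27me3 domains. At CYP79B2 69.8% of the large-scale gain and 69.6% of the time course gain was covered, and at MYB34 72.3% and 54.8%. Of the 6800 bp covered in the large-scale gain at MYB34, the H3K27me3 domain in its window supplied 3400 bp, and the rest lay past the window. None of the gains at IGMT5, CYP83B1 and SUR1 was covered. Over all gains the covered share was 12.1% of the large-scale and 12.2% of the time course length. The MYB51 loss was covered by H3K27me3 over its whole length. Untreated H3K9ac covered 38.3% of the large-scale gain at MYB34, 35.8% at CYP79B2, 29.4% at CYP79B3, 41.2% at IGMT5, 84.8% at CYP83B1 and 88.9% at CYP81F4, against 82.9% of the length of all large-scale gains. The CYP79B3 time course gain had none.

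**Figure D3:**
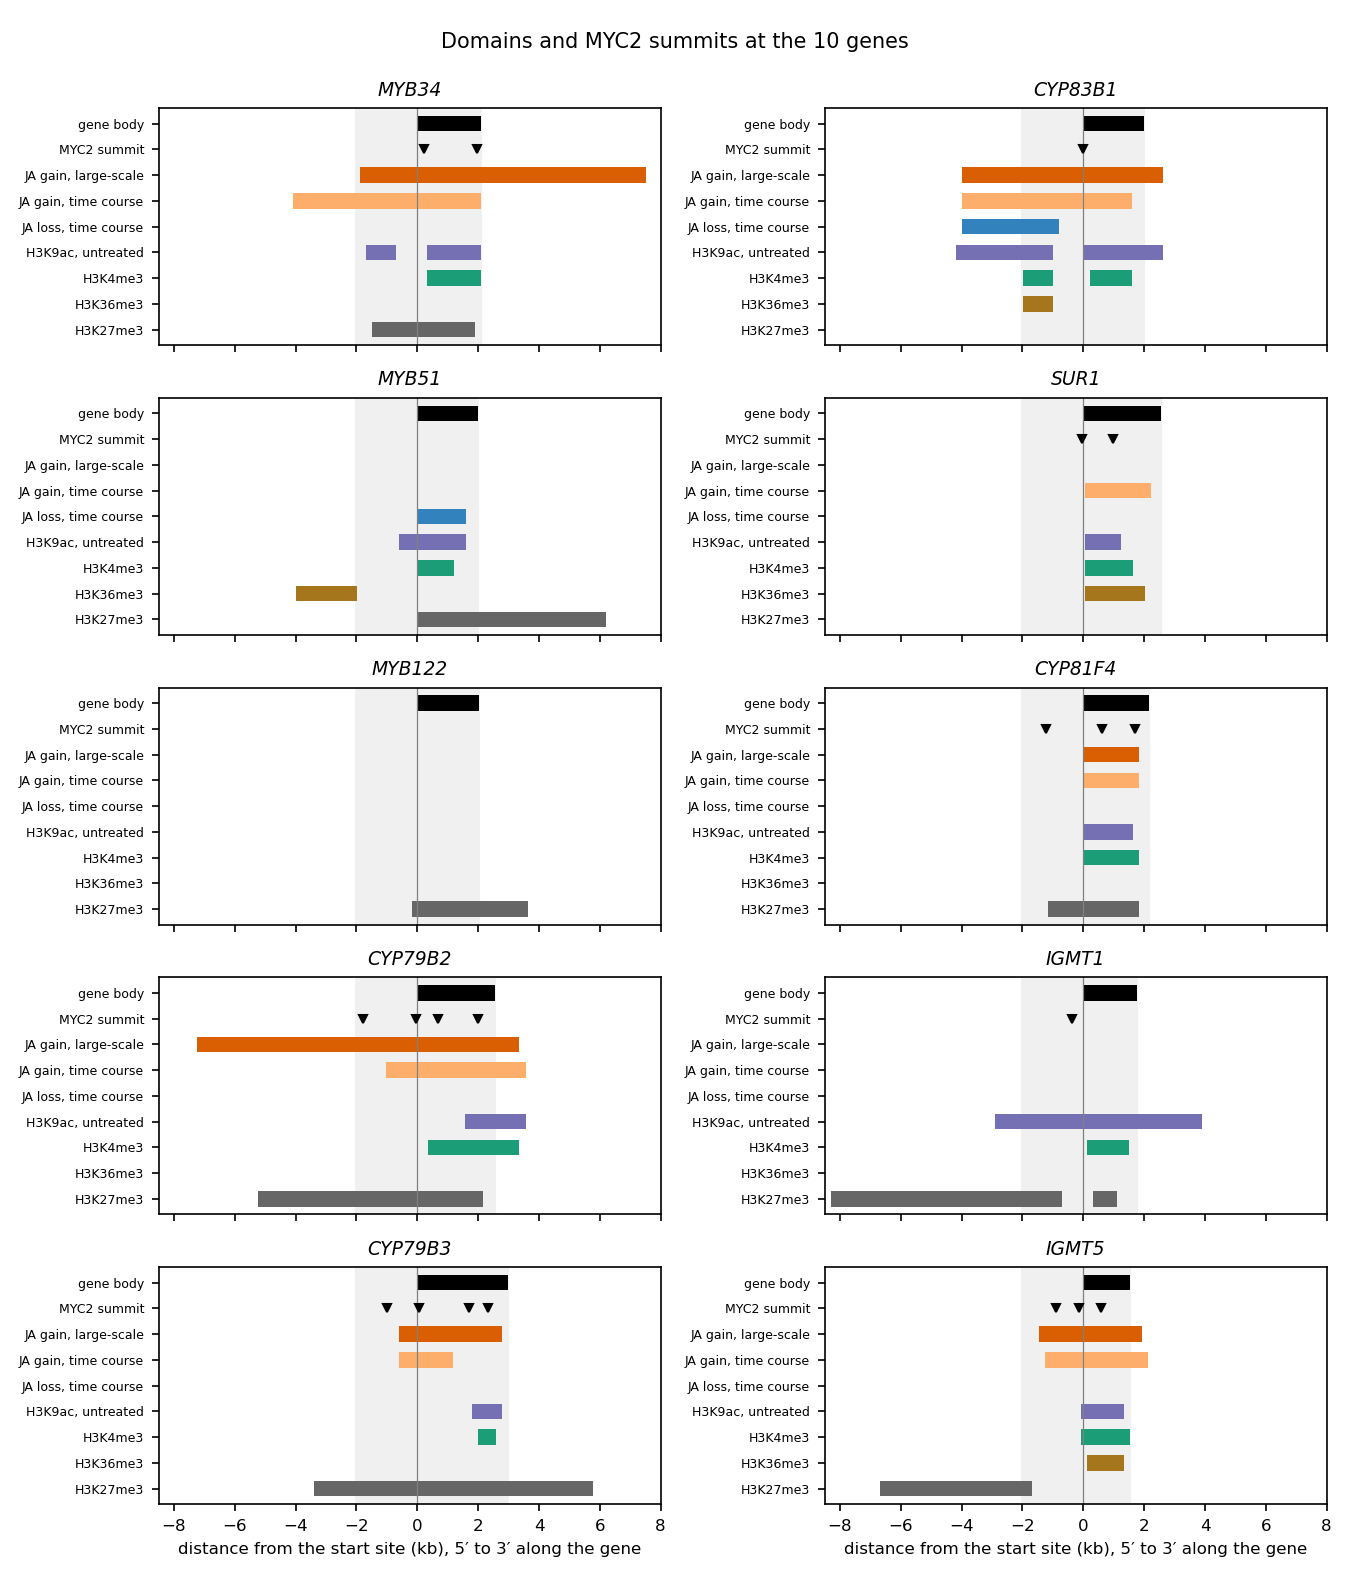
Domains and MYC2 summits around the 10 genes. The x axis gives the distance from the start site in kb along the gene, the grey band is the window searched, bars are domains of the merged lists and triangles are MYC2 summits. MYB122 has an H3K27me3 domain and nothing else, and at CYP79B2 and CYP79B3 untreated H3K9ac begins 1559 and 1788 bp after the start site while the JA gains reach upstream of it.

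Untreated H3K9ac was called at 9 of the 10 genes in the merged list, against 75.5% of all genes, and in all 5 libraries at 8, against 70.4%. MYB122 had no H3K9ac domain in any list, and CYP81F4 had none in regular replicate 2. The position of the mark differed between genes. In most genes with H3K9ac on the body in all 5 lists the domain began near the start site (median 73 bp before it), and in 2.0% of 16711 such genes it began over 1000 bp after it. CYP79B2 and CYP79B3 belonged to this small group, with domains that began 1559 bp after the start site in every library and 1788 to 1988 bp after it. At CYP79B2 the domain ran past the end of the gene into AT4G39952 in 4 of the 5 libraries. The domains of SUR1, MYB51, CYP83B1, IGMT5 and MYB34 began between 73 bp before and 310 bp after the start site, taking the median over libraries.

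Levels of untreated H3K9ac, as log2 fold over IgG, are given for regular replicates 1 and 2 and then PHILO replicates 1, 2 and 3. They are those of the whole called domains that met the body, so unmarked parts of a gene do not enter them. In the merged list the domain covered 33.4% of the body at CYP79B3, 39.1% at CYP79B2 and 47.0% at SUR1. At the other genes with a domain it covered 74.5% to 100%. CYP79B3 had 1.29, 1.36, 2.00, 2.37 and 2.05, a mean of 1.81 ± 0.47 (SD, n = 5). SUR1 had 1.53, 1.37, 2.06, 2.02 and 2.06, a mean of 1.81 ± 0.34 (SD, n = 5). These were the highest of the 10 genes and stood near the median of 1.77 over 16711 genes. MYB51 had 1.43, 0.86, 1.72, 2.06 and 1.76, a mean of 1.56 ± 0.46 (SD, n = 5). CYP83B1 had 1.17, 1.08, 1.50, 1.70 and 1.43, a mean of 1.38 ± 0.25 (SD, n = 5). IGMT5 had 0.94, 0.97, 1.56, 1.70 and 1.61, a mean of 1.35 ± 0.37 (SD, n = 5). At each of these genes all PHILO values were above all regular values, as at 91.4% of all genes with a domain in the 5 lists. MYB34 had 0.68, 0.58, 1.40, 1.46 and 1.28, a mean of 1.08 ± 0.42 (SD, n = 5). CYP79B2 had 1.08, 0.50, 0.85, 1.14 and 1.13, a mean of 0.94 ± 0.27 (SD, n = 5). IGMT1 had 0.72, 0.77, 0.74, 0.67 and 1.15, a mean of 0.81 ± 0.20 (SD, n = 5). In CYP79B2 and IGMT1 regular and PHILO values overlapped. CYP81F4 had 0.67 in regular replicate 1 and 0.73, 0.90 and 0.80 in the PHILO libraries.

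In the order of means, the step from IGMT5 to MYB34 was the one in which all 5 libraries showed the same order (mean difference 0.28 ± 0.09, SD, n = 5). Every other pair of neighbours changed order in at least 1 library, and CYP79B3 and SUR1 differed by 0.004 ± 0.214 (SD, n = 5). MYB34, CYP79B2 and IGMT1 were low in the genome as a whole, since 96.2%, 98.1% and 99.3% of genes had at least their mean. IGMT1 is part of a tandem array and aligned to IGMT3, IGMT4 and IGMT2 with 84.9%, 87.9% and 86.5% identical bases over most of its length, so its values are uncertain where reads could fit several copies. Of the H3K27me3 and merged H3K9ac domains in the IGMT1 window, the larger ones also covered IGMT3, and the H3K27me3 domain IGMT2 too.

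**Figure D4:**
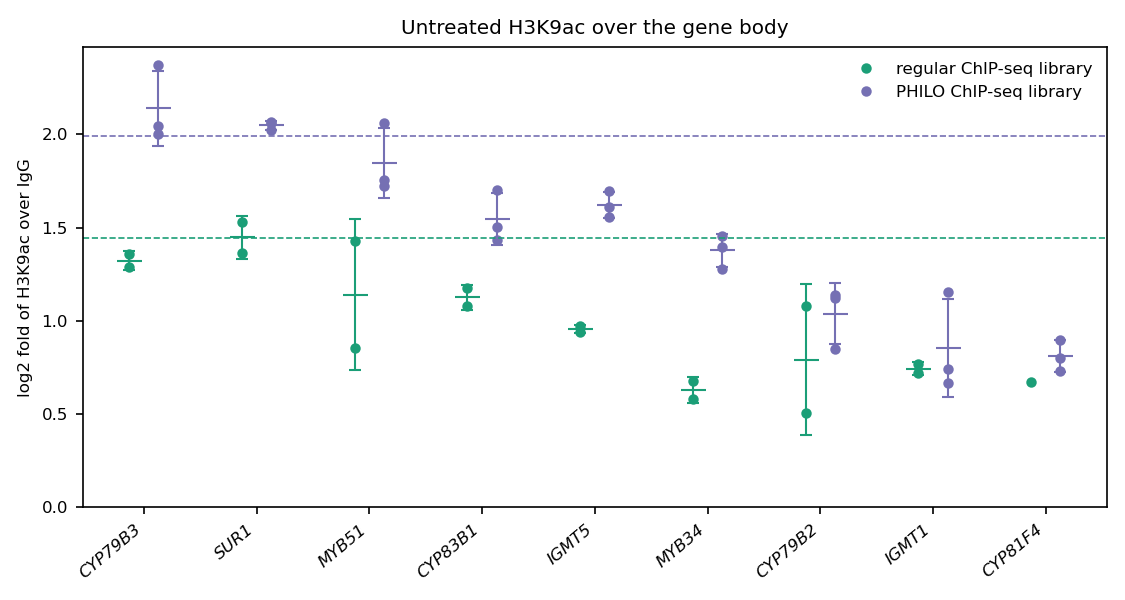
Untreated H3K9ac in the called domains that met the body of the 9 genes with a domain. The y axis gives the log2 fold of H3K9ac over IgG, points are libraries, horizontal marks with bars are the mean ± SD of each method and dashed lines are the medians of all genes (1.44 regular, 1.99 PHILO). PHILO points lie above regular points at MYB34, MYB51, CYP79B3, CYP83B1, SUR1 and IGMT5.

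Whether the method changed these profiles was asked with the 5 untreated libraries. On the scale of fold over IgG, every PHILO library was above every regular library at 6 of 8 genes (MYB34, MYB51, CYP79B3, CYP83B1, SUR1 and IGMT5). The PHILO mean exceeded the regular mean by 0.54 over all genes (median), by 0.82 at CYP79B3, by 0.75 at MYB34 and by 0.11 at IGMT1. Counts were then compared over 12972 regions with a domain in all 5 lists, relative to the other regions, by edgeR's quasi-likelihood test with Benjamini-Hochberg adjustment. Of these regions 2.37% were higher and 2.65% lower in PHILO libraries. None of the 8 regions at these genes passed the test at 0.05, whereas 6 passed by library totals (all but MYB51 and IGMT1) and 6 by limma on the fold over IgG (all but CYP79B2 and IGMT1), all of them higher, on scales that keep the shift shared by most regions. At an unadjusted p under 0.05 there were 3 (MYB51, SUR1 and CYP83B1), and DESeq2 called 1, MYB51. The MYB51 region held 730 and 962 regular counts and 745, 537 and 496 PHILO counts, a log2 change of −0.51 ± 0.14 (SE, edgeR adjusted p = 0.0767). The domain of regular replicate 2 at MYB51 was longer than those of the other libraries, and with the called length as an offset the value was 0.11. The CYP83B1 region had a log2 change of 0.39 ± 0.12 (SE, edgeR adjusted p = 0.0933) and −0.32 with that offset. The count of regions called over the genome rested on single libraries. It was 651 with all libraries, 0 without regular replicate 1, regular replicate 2 or PHILO replicate 2, 248 without PHILO replicate 3 and 1171 without PHILO replicate 1. Scaling by library totals shifted the median of all regions by 0.52, and by that scaling 11195 regions were called.

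The 19 other genes of the glucosinolate pathway, not all of them particular to indole glucosinolates, comprise enzymes of the core pathway (GGP1, GSTF9, GSTF10, GSTU13, UGT74B1, SOT16, SOT17 and SOT18), ring-modifying enzymes (CYP81F1, CYP81F2, CYP81F3, IGMT2, IGMT3 and IGMT4), the transporters GTR1 and GTR2 and the myrosinases TGG1, TGG2 and PEN2. In the large-scale experiment 7 of the 19 had a gain and in the time course 9, and 9 had a MYC2 peak. The 7 with a gain in both experiments (GGP1, GSTF9, GSTF10, SOT16, SOT17, SOT18 and GTR1) all had a MYC2 peak, as all 6 such genes among the 10 did. GSTF9 and GSTF10 lay in the same gain in each experiment, and so did SOT16 and SOT18. Each pair also shared a MYC2 peak, so the counts and medians of this set include the same domains more than once. The MYC2 fold reached 7.58 at SOT16 and 6.28 at GSTF9, above the 5.18 at CYP83B1. The median log2 ratio was 0.50 in large-scale gains (range 0.12 to 0.63) and 0.33 in time course gains (range 0.15 to 0.59), within the range of the 10 genes in the time course and in part below it in the large-scale experiment. The difference between both sets of genes was not tested. GGP1, which encodes a peptidase that processes the glutathione conjugate, had 0.59 (0.43 to 0.74) in the time course and GTR1, a glucosinolate transporter, 0.45 (0.24 to 0.67). IGMT4 was the one with a time course loss, with a log2 ratio of ctrl over JA of 0.32 (0.14 to 0.50). Neither IGMT2 nor IGMT3, the neighbours of IGMT1, had a gain or a time course loss.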

How the data were processed

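Samples were grouped by their titles. Reads were mapped by the authors to TAIR10 (Bowtie2 2.4.1). They called histone domains with epic2 (listed as SICER 0.0.52 in the submitters' processing notes) and MYC2 peaks with MACS2 2.2.7.1. The deposited domain lists give whole-number read counts of treatment and control, a p-value and an FDR under 0.05, a score that is a multiple of the log2 fold, and the log2 fold of the authors' caller, whose offset from the log2 ratio of counts gave the ratio of library totals. The deposited MYC2 list gives a fold enrichment, −log10 p-values and q-values and a score per peak. The p-values, scores and folds of the JA lists are the caller's, and fold values printed here for domains were computed from the counts. Duplicate handling was not given in the sources used here.

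Domain starts were read from 0 and widths as multiples of 200 bp, and overlaps needed 1 bp. Where several domains met 1 window, counts were summed. Nuclear chromosomes and gene models came from RefSeq TAIR10.1, whose nuclear coordinates are those of TAIR10. For the comparison of methods, edgeR 4.0.16 in R 4.3.3 (TMM, quasi-likelihood fit) was run on regions merged from the 5 library lists, with DESeq2 1.42.0 and limma 3.58.1 as alternatives. In simulated counts for this comparison over 12972 regions, 200 of 200 regions changed by 1 on the log2 scale were recovered, with 14 false calls. The simulation used a common dispersion and a change larger than those at the genes described here. It therefore does not show whether changes of their size would be found. Copies were sought with blastn 2.17.0 at 75% identity or more. Python 3.11.15 was used. The labels do not say how replicates were raised, so the p-values measure the spread between these samples. Intervals cover counting error alone, because duplicate molecules cannot be told apart, and the depth of merged lists is known only through their counts.

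All 10 genes were described, and of the 19 other pathway genes those with a gain above the median of the 10 genes or a domain shared with them were named, with IGMT4 added after its value was seen. The genes and lists were chosen with earlier results of these data known. Alternatives were other windows, overlaps, thresholds, scalings, filters and tools, and leaving out each library.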

Additional observations from a re-analysis of the deposited data

How the results depend on the processing

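Results were recomputed with each alternative. A threshold of a log2 fold of at least 1 left 1 gene with a large-scale gain (IGMT5), 0 with a time course gain, 0 with a time course loss and 4 with H3K9ac in the merged list. With the gene body alone, 1 gene had a time course loss (MYB51) and 2 had H3K36me3 (SUR1 and IGMT5). The median log2 ratio in time course gains was 0.62 with the loss nested at CYP83B1 subtracted, an alternative chosen after seeing the data that can only raise the value and was not applied to the median of all genes. Of the comparison of PHILO with regular libraries, DESeq2 called 1176 regions (514 higher and 662 lower), library totals 11195 (11141 higher and 54 lower), limma on the fold over IgG 11430 and an offset for covered length 3. Leaving out each library in turn gave 0 to 1171 regions, and the median log2 fold of H3K9ac over IgG at 8 genes stayed between 1.28 and 1.45. With the replicate number as a block 613 regions were called (213 higher and 400 lower) and none of the 8 regions at these genes. Deviations of libraries with the same number correlated at −0.03 and 0.02, so the numbers were not taken as pairs. The single genes whose sign turned were MYB51 (0.021 by library totals, 0.11 with the length offset, 0.71 by limma), IGMT1 (0.24 by library totals, 0.11 by limma), CYP83B1 (−0.32 with the length offset), CYP79B2 (−0.20 with the length offset, and −0.24 to 0.74 with 1 library left out) and IGMT5 (−0.026 to 0.23 with 1 library left out), each below 0 without regular replicate 1. The cause was not tested. The length offset and the fold over IgG both change how called length enters the value. At single genes, the H3K9ac fold over IgG moved by more than its SD over libraries with the regular libraries alone at MYB34 (0.63), CYP79B3 (1.32), SUR1 (1.45) and IGMT5 (0.96), and 12 further values of PHILO against regular passed the threshold without turning sign, 6 of them by library totals, 5 by limma and 1 by DESeq2. Of the summary results, 51 values under alternatives stayed within their limits, which let counts of genes differ somewhat. Among these, an FDR under 0.001 left 5 genes with a large-scale gain, without CYP81F4. The same limit left 5 genes with a time course gain, without CYP83B1 and CYP81F4. MYB34, CYP79B2, CYP79B3 and IGMT5 then remained with a gain in both. No replicate could be left out of the merged lists, and the paired analysis was possible for the 5 untreated libraries alone.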
